A study of Mus musculus with 6 samples.

Results

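The troponin genes are the 8 mouse genes for troponin T (Tnnt1, Tnnt2, Tnnt3), troponin I (Tnni1, Tnni2, Tnni3) and troponin C (Tnnc1, Tnnc2). They were taken by symbol, as every probe set annotated to one of these genes and to no other. This gave 12 probe sets for 8 of the 18193 genes that have a probe set of their own on the array. A probe set is a group of short oligonucleotides that together measure a transcript. Tnnt2 and Tnni2 have 3 probe sets each and the other 6 genes have 1.

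Transcript levels were compared in C2C12 cells, a mouse line of muscle precursors that grows without limit in culture and can be made to form muscle. The undifferentiated cultures proliferated in 20% serum in MEM, and the differentiated cultures were taken on day 6 in 2% horse serum, with 3 RNA samples and 3 arrays for each. The labels name no other agent and no genetic change, and serum content, time and differentiation cannot be told apart. According to the methods, every RNA sample combined pools from plates set up on successive days, so that the spread given here lies between pools and not between single cultures. Only some of the cells of a differentiated culture fuse into multinucleated myotubes, and mononucleated cells remain beside them. In such bulk RNA a larger number of expressing cells and more transcript per cell cannot be told apart.

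Troponin is the calcium switch of striated muscle and sits with tropomyosin on the actin filament. Troponin C binds calcium, troponin I holds back the interaction of actin with myosin until calcium arrives, and troponin T anchors the complex to tropomyosin. Separate genes encode the slow skeletal, cardiac and fast skeletal forms of T and I, whereas a single gene, Tnnc1, serves both slow and cardiac muscle and Tnnc2 serves fast muscle. Developing skeletal muscle is known to carry cardiac troponin T for a time.

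The transcripts of all 3 subunits rose together on differentiation, and slow, fast and cardiac genes were among them. By the brightest probe set of each gene, 7 of the 8 troponin genes were higher in differentiated cells, and the exception was cardiac Tnni3. Over all genes, 8.67% were called higher in this way. The median log2 fold change was 6.17 over the troponin genes and 0.06 over all genes. Of the 12 troponin probe sets 9 were called higher, where 6.14% of all probe sets were, and the 3 others did not pass. In 10 of the 12, all differentiated arrays lay above all proliferating arrays, against 14.9% of all probe sets. The test was limma on log2(signal + 15), with a call at a Benjamini-Hochberg adjusted p under 0.05. Changes below are in log2 units of that scale, differentiated minus proliferating, and signals are linear MAS 5.0 intensities.

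**Figure D1:**
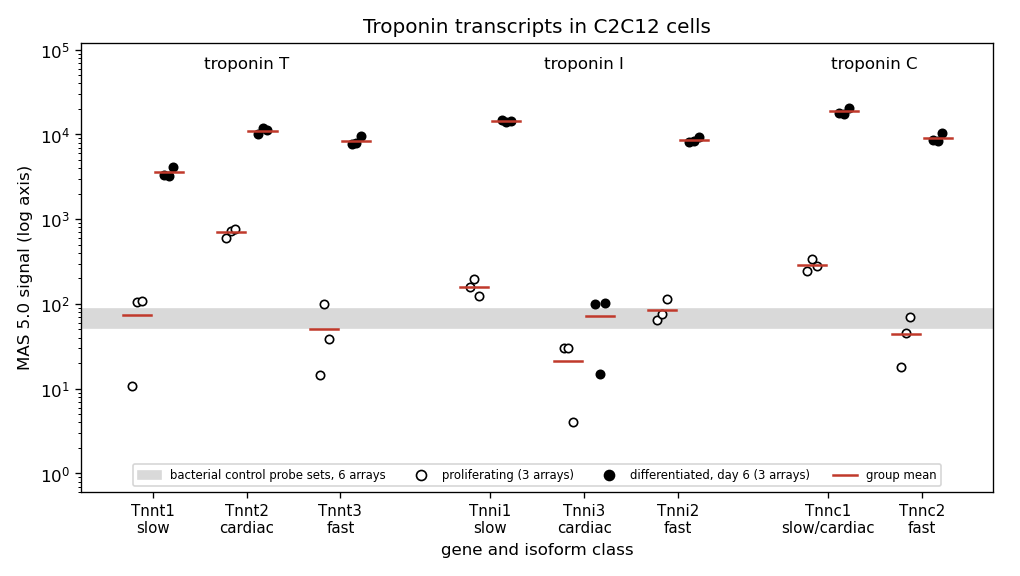
MAS 5.0 signal (log axis) of the brightest probe set of each troponin gene on the 3 proliferating arrays (open circles) and 3 differentiated arrays (filled circles), with group means as lines. The grey band marks the bacterial controls, 51.9 to 87.0 over the 6 arrays. In 7 genes every differentiated array lies far above every proliferating one, and in Tnni3 the groups overlap near the band.

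Median signals of the arrays ran from 68.0 to 81.4. The brightest of 27 Bacillus subtilis control probe sets, for which the cells hold no transcript, lay between 51.9 and 87.0 on the 6 arrays. A signal at or below that control on its own array was read as background. While 8.67% of all genes were called higher, all 7 listed marker genes of skeletal muscle rose in differentiated cells. Among them Myog, the myogenic factor myogenin, went from 172 ± 9.60 to 6854 ± 194 (SD, n = 3 each), or by 5.20 log2 units. Mymk, the fusion protein myomaker, rose by 5.64 log2 units, and Ckm, muscle creatine kinase, was at least 12.7-fold higher.

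The sequence just before the start of 4 troponin genes is printed here because these genes, of slow, cardiac and fast type, rose together. They are the RefSeq promoter windows of the build GRCm38.p6, cut to the 250 bases before the start and written in the direction of the gene. Such windows were at hand for 6 of the 8 genes, and Tnni2 and Tnnt3 are named only. Capitals mark matches, on either strand, to 3 motifs: the E-box CANNTG, which myogenic bHLH factors bind, the MCAT core CATTCC, bound by TEAD factors, and the TATA box TATAAA.
Tnnt1 (chr7:4515976-4516225, minus strand): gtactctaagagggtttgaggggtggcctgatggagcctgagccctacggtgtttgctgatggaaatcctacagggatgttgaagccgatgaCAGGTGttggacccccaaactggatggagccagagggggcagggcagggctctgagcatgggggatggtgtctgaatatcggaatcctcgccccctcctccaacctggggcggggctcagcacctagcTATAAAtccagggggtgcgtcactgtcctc
Tnnt2 (chr1:135836084-135836333, plus strand): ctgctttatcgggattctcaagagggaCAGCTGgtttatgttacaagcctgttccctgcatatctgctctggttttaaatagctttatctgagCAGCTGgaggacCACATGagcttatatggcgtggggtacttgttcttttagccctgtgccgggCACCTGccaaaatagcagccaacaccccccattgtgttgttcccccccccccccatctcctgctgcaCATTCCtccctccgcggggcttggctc
Tnnc1 (chr14:31208062-31208311, plus strand): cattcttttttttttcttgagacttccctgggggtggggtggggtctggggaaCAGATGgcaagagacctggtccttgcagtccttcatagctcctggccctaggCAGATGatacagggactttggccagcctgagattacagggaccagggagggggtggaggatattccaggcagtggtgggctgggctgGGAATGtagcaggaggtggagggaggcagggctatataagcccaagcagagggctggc
Tnnc2 (chr2:164779735-164779984, minus strand): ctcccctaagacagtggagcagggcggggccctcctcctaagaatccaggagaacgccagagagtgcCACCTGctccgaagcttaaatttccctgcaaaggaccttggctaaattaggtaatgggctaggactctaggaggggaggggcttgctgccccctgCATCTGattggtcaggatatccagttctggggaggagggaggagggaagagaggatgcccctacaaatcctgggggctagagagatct
The Tnnt1 window held an E-box that begins 158 bases before the start and a TATA box at 30 bases. The printed window of cardiac Tnnt2 held 4 E-boxes, at 223, 157, 145 and 94 bases, and an MCAT core at 27. Another window of Tnnt2, before a different start and not printed, held 1 E-box, at 156 bases, and no MCAT core. Slow and cardiac Tnnc1 held E-boxes at 197 and 145 bases and an MCAT core at 58, read there on the other strand as GGAATG, and fast Tnnc2 held E-boxes at 183 and 88. All 8 windows of the 6 genes held an E-box, including that of Tnni3, where 66.2% of 32851 mouse windows of this length did. The windows of Tnni1 overlap and share E-boxes, so that the 8 are not all separate sequences. An MCAT core was present in 2 of the 8 windows, of 2 genes, and in 12.6% of all windows, and TATAAA in 1 of the 8 and in 12.4%. Only exact matches were counted, and a variant of the TATA box, TATATAA in the Tnnc1 window, was not. No match to the MEF2 or CArG motif was found in the 8 windows, and these motifs occurred in 2.92% and 1.47% of all windows. The matches are descriptions of sequence and show no binding.

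Among the troponin T genes, slow Tnnt1 (probe set 1419606_a_at) had signals of 10.7, 104.1 and 107.6 in proliferating cells, against 3365.9, 3269.1 and 4090.5 in differentiated cells. The groups were far apart, although proliferating replicate 1 lay well under the 2 other proliferating arrays, which were above background. The mean rose from 74.1 ± 55.0 to 3575 ± 449 (SD, n = 3 each), or by 5.63 log2 units with a standard error of 0.44 (adjusted p = 2.3e-06). Without proliferating replicate 1 the change was 4.89 (adjusted p = 5.4e-09).

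Fast Tnnt3 (1450118_a_at) had proliferating signals of 14.7, 99.4 and 38.9, of which only replicate 2 exceeded background. On the differentiated arrays it reached 7664.9, 7972.9 and 9649.7. Its mean went from 51.0 ± 43.6 to 8429 ± 1068 (SD, n = 3 each), or by 7.21 log2 units with a standard error of 0.34 (adjusted p = 2.3e-08). With each proliferating signal below the control raised to it, the rise was 107-fold.

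Cardiac Tnnt2 was the troponin T gene already plainly detected before differentiation. Its brightest probe set (1424967_x_at) gave 598.4, 719.7 and 774.8 on the proliferating arrays and 10078.8, 11774.4 and 11405.4 on the differentiated arrays. The mean rose from 698 ± 90.2 to 11086 ± 892 (SD, n = 3 each), or 15.9-fold, which is 3.97 log2 units with a standard error of 0.11 (adjusted p = 3.4e-10). This was the smallest change among the 7 genes that rose, from a starting signal above background on all 3 arrays.

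Slow Tnni1 (1450813_a_at), the inhibitory subunit of slow fibers, had proliferating signals of 156.5, 196.0 and 124.6, all above background. Its differentiated signals were 14817.6, 13879.9 and 14490.9, the tightest group of the troponin probe sets, with a coefficient of variation of 3.31%. The mean rose from 159 ± 35.8 to 14396 ± 476 (SD, n = 3 each), or by 6.39 log2 units with a standard error of 0.13 (adjusted p = 1.3e-11).

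Fast Tnni2 (1416889_at) had proliferating signals of 64.7, 76.8 and 114.7, and replicates 2 and 3 were above background. Its differentiated signals were 8158.3, 8344.6 and 9217.2. The mean rose from 85.4 ± 26.1 to 8573 ± 565 (SD, n = 3 each), or by 6.45 log2 units with a standard error of 0.16 (adjusted p = 6.2e-11). As for Tnni1, no differentiated array came near the proliferating ones.

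Cardiac Tnni3 (1422536_at), which replaces slow troponin I in the maturing heart, had proliferating signals of 30.3, 30.1 and 4.0, all at background. On the differentiated arrays it gave 99.1, 14.9 and 103.5, above background on replicates 1 and 3 and at background on replicate 2. The groups overlapped, and the change was 1.13 log2 units with a standard error of 0.62 (adjusted p = 0.33). Without differentiated replicate 2 it was 1.78 (adjusted p = 0.092), which also missed the threshold. No fold is given, since neither group as a whole stood above background, and a low level of Tnni3 was not resolved on these arrays.

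The calcium-binding subunits rose in both forms. Slow and cardiac Tnnc1 (1418370_at) had proliferating signals of 246.1, 338.7 and 283.8, all above background, and differentiated signals of 17765.3, 17518.6 and 20724.4. Its mean rose from 290 ± 46.6 to 18669 ± 1784 (SD, n = 3 each), or by 5.95 log2 units with a standard error of 0.12 (adjusted p = 1.1e-11). Both groups were narrow beside the distance between them.

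Fast Tnnc2 (1417464_at) had proliferating signals of 18.2, 44.9 and 69.3, of which replicate 3 alone was above background. Its differentiated signals were 8633.1, 8330.0 and 10441.5. The mean went from 44.1 ± 25.6 to 9135 ± 1142 (SD, n = 3 each), or by 7.37 log2 units with a standard error of 0.25 (adjusted p = 1.4e-09). It was 128-fold with dim signals raised to the control. The fitted changes of Tnnc2 and Tnnt3 lay within their standard errors of each other, and without proliferating replicate 2 that of Tnnt3 was the larger, 7.71 against 7.43.

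**Figure D2:**
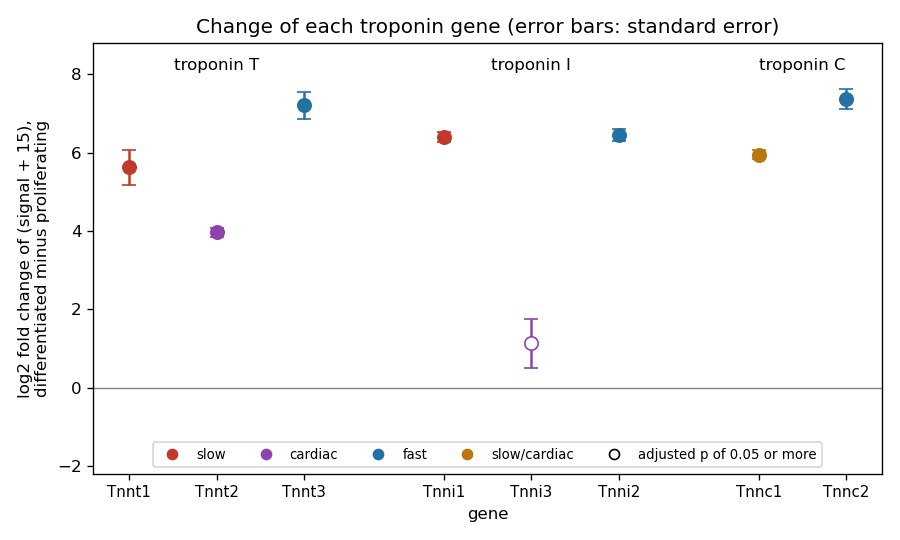
Log2 fold change of log2(signal + 15), differentiated minus proliferating, of the brightest probe set of each troponin gene, with limma standard errors and 3 arrays per group. Colours give the isoform and an open symbol an adjusted p of 0.05 or more. Changes run from 3.97 for Tnnt2 to 7.37 for Tnnc2 in the genes called, and Tnni3 stands at 1.13.

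The additional probe sets did not all show the change of their gene. For Tnnt2, 1418726_a_at gave 1059.6, 1007.5 and 752.1 on the proliferating arrays and 10731.8, 9126.9 and 10267.6 on the differentiated arrays. It rose by 3.41 log2 units with a standard error of 0.13 (adjusted p = 3.0e-09), close to the brightest probe set. The remaining one, 1440424_at, gave 9.9, 7.6 and 36.1 and then 96.0, 15.5 and 153.7. It was at background on all proliferating arrays and on differentiated replicate 2, and its change of 1.44 log2 units, with a standard error of 0.64, did not pass (adjusted p = 0.20). Without differentiated replicate 2 it was 2.16 and was called (adjusted p = 0.039).

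For Tnni2, 1438609_x_at was at background on the proliferating arrays, with signals of 83.4, 28.2 and 7.1, and gave 5350.3, 3445.5 and 5078.0 on the differentiated arrays. It was at least 68.5-fold higher in differentiated cells (adjusted p = 1.7e-07). In contrast, 1438608_at, which is annotated with the same sequence record, gave 33.1, 62.4 and 9.4 and then 78.0, 92.2 and 103.0. All of its differentiated arrays were above background and above the proliferating ones, but its change of 1.23 log2 units, with a standard error of 0.50, did not pass (adjusted p = 0.16). The 2 probe sets of one record thus differed in their call, and the part of the transcript that each measures was not examined.

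**Figure D3:**
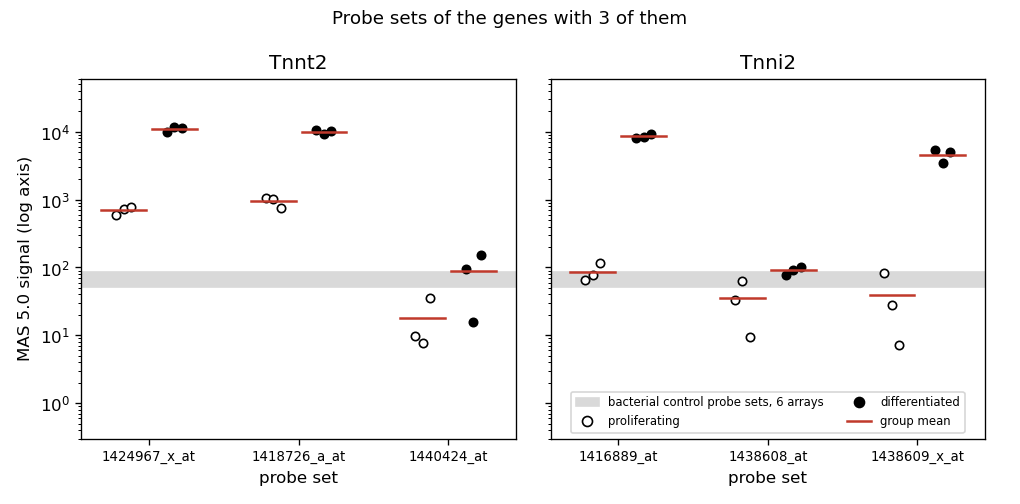
MAS 5.0 signal (log axis) of the 3 probe sets of Tnnt2 and the 3 of Tnni2 on 3 proliferating arrays (open circles) and 3 differentiated arrays (filled circles), with group means as lines and the bacterial controls as a grey band. In each gene 2 probe sets rise steeply, and 1440424_at and 1438608_at stay within reach of the band.

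Whether isoforms of a subunit rose unequally was tested on the difference of their log2 signals within each array, in 7 pairs. Different probe sets cannot be compared in level, so only the changes were set against each other. The change of fast Tnnt3 exceeded that of slow Tnnt1 by 1.58 log2 units (standard error 0.43) and that of cardiac Tnnt2 by 3.24 (standard error 0.51). The excess of Tnnt1 over Tnnt2 was 1.66 (standard error 0.65), and that of fast Tnnc2 over Tnnc1 was 1.42 (standard error 0.34).

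Among the troponin I genes, the changes of Tnni2 and Tnni1 exceeded that of cardiac Tnni3 by 5.32 and 5.26 (standard errors 0.89 and 0.69). In these 6 pairs the differences on the differentiated arrays lay wholly above those on the proliferating arrays, with an exact permutation p = 0.1 each, 2-sided. That is the smallest p that 3 against 3 arrays allow, and the Benjamini-Hochberg adjusted value over the 7 pairs was 0.117, so that no difference passed. For Tnni2 against Tnni1 the difference was 0.06 (standard error 0.36, exact p = 1), an estimate whose error leaves room for either gene to have risen more and whose sign changed with other settings. With each signal below the bacterial control raised to it, a setting chosen after the data were seen, the excess of Tnnt3 over Tnnt1 was 1.58 again, that of Tnnt3 and Tnnt1 over Tnnt2 was 2.75 and 1.17, and that of Tnnc2 over Tnnc1 was 0.98. Those of Tnni2 and Tnni1 over Tnni3 were then 6.10 and 6.08.

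Because cardiac Tnnt2 and the shared gene Tnnc1 rose, markers of heart muscle were read beside them. None of the 10 cardiac markers passed the test with limma or with the regularized test, and 0 had an unadjusted p under 0.05. Their summed signal was 739 to 777 on the proliferating arrays and 632 to 714 on the differentiated arrays, and their median log2 fold change was -0.21. Tbx5, a cardiac transcription factor, and the heart myosin chains Myh6 and Myl7 were at background on all 6 arrays. Gata4 and Mybpc3 were above background on all 6 and did not pass, with log2 fold changes of -0.23 and -0.18. The remaining markers exceeded background on some arrays only. Genes shared by slow and cardiac fibers are listed apart, below. Markers of other cell types were read in the same way. Over all genes, 8.67% were called higher and 9.05% lower. Of smooth muscle markers 1 of 6 was higher, namely Acta2, by 0.75 log2 units, and the other 5 did not pass. The sum of the 6 was 10467 to 11932 before and 18187 to 18742 after. Most of this sum was Acta2 itself, with means of 10490 and 17624, so that it says little of the other smooth muscle markers. Of adipocyte markers 1 of 4 measured was lower, Pparg, with a change of -0.75 log2 units that was called in 4 of 14 alternatives, and their sum was 264 to 302 and then 195 to 283. None of 4 measured osteoblast markers passed with limma or the regularized test, and 1 had an unadjusted p under 0.05. Their sum was 230 to 372 and then 257 to 519. The part of any of these cell types in the troponin signals was not tested.

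The thin filament to which troponin binds changed in most of its listed parts. Of 15 partner genes 10 were higher and 2 lower, with a median log2 fold change of 1.24, beside 8.67% of all genes called higher and 9.05% called lower. The striated actins Acta1 and Actc1 rose by 6.56 and 6.57 (standard errors 0.10 and 0.20). Lmod2, which elongates actin filaments, and Neb, the giant filament protein nebulin, were at background before and at least 14.5-fold and 13.0-fold higher afterwards. Tropomyosin, the direct partner of troponin T, divided by gene. Tpm1 and Tpm2 rose by 1.24 and 0.93, while Tpm3 and Tpm4 fell by 1.18 and 0.98 on the log2 scale, with standard errors of 0.10 to 0.11 for the 4 genes. Splice forms of these genes were not told apart.

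Genes that supply calcium to the switch rose with it, 12 of 14, beside 8.67% of all genes called higher. The median of the 14 was 2.68, or 2.61 with genes that have only a bound placed at it. The largest changes were those of Casq2, which stores calcium in the sarcoplasmic reticulum of slow and cardiac muscle (5.23), Trdn, the triadin of the release complex (4.98), and Ryr1, the release channel of skeletal muscle (4.91, at least 28.8-fold). Atp2a1, the fast calcium pump, rose by 4.24. The standard errors of these 4 changes were 0.17 to 0.34. The slow and cardiac pump Atp2a2 had a log2 fold change of -0.05 (adjusted p = 0.85) from a signal of 4433 ± 538 to one of 4256 ± 244 (SD, n = 3 each). The pump inhibitor Sln was at background on every array.

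The mixture of slow, cardiac and fast troponins was set beside fiber-type isoforms of other proteins. The shares of all genes called higher and lower were 8.67% and 9.05%. Of 13 genes of slow and cardiac fibers 6 were higher and 1, Tpm3, was lower, with a median of 0.92. Myoz2, a Z-disc protein, rose by 5.38 (at least 16.3-fold), the oxygen carrier Mb by 5.04 and Myh7, the slow myosin heavy chain, by 4.27, and Casq2 belongs to this list too. Of 13 genes of fast fibers 9 were higher, with a median of 2.68, or 1.54 with genes that have only a bound placed at it. The fast myosin light chains Myl1 and Mylpf rose by 6.51 and 6.09, the heavy chain Myh1 by 5.28 (at least 17.2-fold), and Atp2a1 as above. Standard errors of the genes named so far from both lists were 0.10 to 0.38. The other fast heavy chains listed, Myh2 and Myh4, did not pass (adjusted p = 0.79 and 0.20), and Myh2 was at background on all arrays. Both kinds of fiber gene were thus among those that rose. All 6 genes listed as developmental isoforms rose, with a median of 6.43. Mybph, a myosin-binding protein, was at least 222-fold higher, the embryonic light chain Myl4 rose by 7.26, Actc1 by 6.57 and Chrng, the fetal subunit of the acetylcholine receptor, by 6.29, with standard errors of 0.13 to 0.24.

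Troponin I and troponin T genes lie in pairs on the mouse chromosomes. In the RefSeq order of GRCm38.p6, Tnni1 and Tnnt2 stand on chromosome 1 with Lad1 between them. On chromosome 7, Tnnt1 and Tnni3 are adjacent, and in another place Tnni2 and Tnnt3 have Lsp1 between them. The genes beside them, chosen by position, changed little or did not pass. Of 8 protein-coding neighbors 7 were measured, and 1 was higher and 1 lower, beside 8.67% and 9.05% of all genes. Phlda3, beside Tnni1, rose by 0.56 with a standard error of 0.10 (adjusted p = 0.0014), and Pkp1, beside Tnnt2, fell by 0.53 log2 units with a standard error of 0.16 (adjusted p = 0.049). Under 14 alternatives Phlda3 was called in 13, all but the fit without trend, and Pkp1 in 5, with adjusted p between 0.019 and 0.26. Between the paired genes, Lad1 had a log2 fold change of -0.10 (adjusted p = 0.96) and Lsp1 one of 0.11 (adjusted p = 0.66). Syt8, Mrpl23 and Ppp1r12c had changes of 0.09, 0.07 and 0.09, with adjusted p = 0.82 or more. For Lad1 and Syt8 the standard errors were wide, 0.63 and 0.66, and both genes were at background on some arrays of each group. Their small estimates thus leave room for a sizeable change in either direction. Lsp1, Mrpl23 and Ppp1r12c were measured more closely, with standard errors of 0.11, 0.12 and 0.18. Within the adjacent pair, Tnnt1 rose by 5.63 and Tnni3 did not pass.

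**Figure D4:**
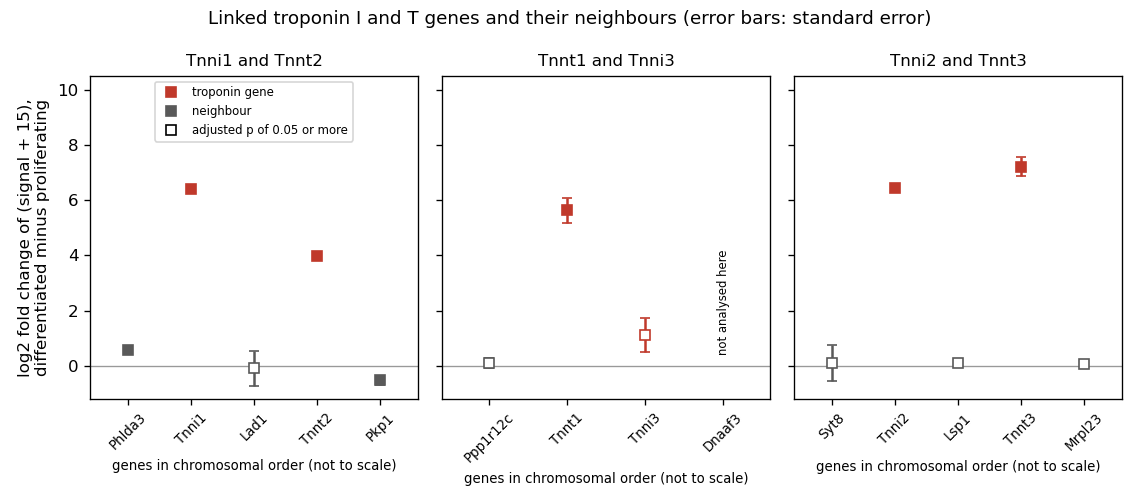
Log2 fold change of log2(signal + 15), differentiated minus proliferating, of the troponin genes (red) and their protein-coding neighbors (grey) in chromosomal order at 3 loci, with limma standard errors and 3 arrays per group. Open symbols have an adjusted p of 0.05 or more. The neighbors lie between -0.53 and 0.56, while 5 of the 6 troponin genes lie between 3.97 and 7.21.

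Among genes other than the troponins, those with the most similar pattern were found by the root mean square difference of log2(signal + 15) over the 6 arrays, after the mean of each probe set was subtracted. The measure follows the size of the change and, where signals are dim, also the scatter of single arrays. For example, Tnnt1 and Mb were both lowest on proliferating replicate 1, at 10.7 and 15.4. Lmod2, whose change of 5.70 was closer to that of Tnnt1 than the 5.04 of Mb, was not among the 2 nearest. Nearest to slow Tnnt1 were Mb (0.42) and Myoz2 (0.62), and nearest to fast Tnnt3 were Myl4 (0.50) and Acta1 (0.59). Tnni1 was nearest to Myl1 (0.11) and Mylpf (0.18), Tnni2 to Acta1 (0.19) and Chrng (0.24), Tnnc1 to Mylpf (0.10) and Lmod2 (0.20), and Tnnc2 to Acta1 (0.52) and Myl1 (0.61). Tnnt2 was nearest to Dclk1, a microtubule-associated kinase (0.11), and Tgm2, a transglutaminase (0.17). Among the troponin genes themselves, Tnnc1 and Tnni1 were closest (0.28), followed by Tnnc1 and Tnni2 (0.33), Tnni1 and Tnni2 (0.36) and the fast genes Tnnc2 and Tnnt3 (0.47). For Tnnc2, both Tnnt3 and Tnni2 (0.51) were closer than any gene outside the family, and for Tnnt3, Tnnc2 was.

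The differentiated arrays varied little in the brightest probe sets of the 7 genes called, where the highest exceeded the lowest by 1.07 to 1.26 times. The called Tnni2 probe set 1438609_x_at spanned 1.55-fold, and Tnni3, near background and not called, 6.95-fold. By brightest probe set, differentiated replicate 3 was the highest in 5 genes, Tnnt1, Tnnt3, Tnni2, Tnnc1 and Tnnc2, whereas replicate 1 was highest for Tnni1 and replicate 2 for Tnnt2. By probe set, replicate 3 was the highest in 5 of the 9 called, replicate 1 in 3 and replicate 2 in 1. Over all 2765 probe sets called higher, these shares were 28.2%, 33.4% and 38.4%. The replicates of a group have no order, and these 5 genes share the same 3 RNA samples.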

How the data were processed

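Total RNA of C2C12 cells was hybridized to Affymetrix Mouse Genome 430 2.0 arrays, 3 for proliferating and 3 for differentiated cultures. The authors deposited linear intensity values from MAS 5.0, in which the trimmed mean of every array is about 249. They state further normalization by GCRMA and a Bayesian regularized test, and GCRMA was not repeated, since probe-level data were not used here. Of 45101 probe sets, 64 controls were left out. For naming, 34945 probe sets carried 1 gene in the platform annotation, 932 several and 9160 none, and only the first were named.

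After addition of 15 and conversion to log2, the 45037 other probe sets entered one limma model (version 3.58.1, R 4.3.3; lmFit, eBayes with trend, 2-sided, Benjamini-Hochberg). A gene was represented by its probe set with the highest mean over the 6 arrays. Background was the brightest Bacillus subtilis control of each array. A fold against a group wholly at background is a lower bound, the mean log2 of the brighter group against that of the controls. Pairs of isoforms were compared by exact permutation. The fit was tested on simulated data. Python 3.11.15 with pandas 2.3.3, numpy 2.4.6 and scipy 1.17.1 served for the remaining steps.

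Named genes are all troponin genes, per list the passing genes with the largest changes, at most 4, and the 2 most similar genes of each troponin gene called. The neighbors were taken by position, and every measured one is named. Other genes named, such as tropomyosins and markers, were chosen after their values were seen. The members and lists were chosen with earlier results of these data known. Of the marker lists, Plin1, Cfd, Bglap and Runx2 were not named here. Alternatives covered normalization, pseudocount, dim probe sets, variance model, test, pairing, single arrays and the choice of probe set. Log2 signals of arrays of one group had a Pearson's r of 0.937 to 0.942, computed across probe sets. The number of arrays limits the precision of every value.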

Additional observations from a re-analysis of the deposited data

How the results depend on the processing

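The number of troponin probe sets called higher was 9 under each alternative, the replicate block included (9), except without differentiated replicate 2, where it was 10. Leaving out single arrays gave 9 to 10. The replicate numbers did not pair the arrays, since same-numbered arrays had correlations of their deviations of 0.00066 to 0.012, and the block changed no call of a troponin gene. Tnni3 passed under no alternative, with a log2 fold change of 0.70 to 1.78, and the other 7 genes passed under each alternative that tested them. The log2 fold change ranged over the alternatives from 4.89 to 6.12 for Tnnt1, 6.48 to 7.72 for Tnnt3, 6.13 to 6.54 for Tnni1, 5.79 to 6.06 for Tnnc1 and 6.64 to 7.84 for Tnnc2. With the mean of all probe sets of a gene, values with no test, Tnni2 changed by 4.78 and Tnnt2 by 2.94, since that mean includes their dim probe sets. The difference between Tnni2 and Tnni1 changed sign with quantile normalization (-0.036), with a pseudocount equal to the 40th percentile (-0.11) and with the mean of all probe sets (-1.62), and ran from -0.14 to 0.40 when single arrays were left out. The other 6 isoform differences kept their direction, and that of Tnnt1 over Tnnt2 ranged from 1.02 to 2.69. With eBayes without the trend, calcium genes called higher numbered 10 and fast fiber genes 8, and over all probe sets 1367 were called higher in place of 2765. Over all settings the median of all probe sets moved to between -0.0075 and 0.075. Signals near background limit the size of the changes of Tnnt1, Tnnt3, Tnni2 and Tnnc2, whose proliferating arrays lay partly below the bacterial control.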
